A study of Homo sapiens with 13 samples.

Results

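The genes CTTNBP2, HECW2, PARD3B, AUTS2, JAKMIP3, DLGAP2, DACT3, GLT1D1, IQANK1 and ZSCAN1 were examined because strong DNMT1 peaks were called in them after inhibition of DNMT1. They are 10 of the 20037 protein-coding genes of RefSeq on GRCh38. They were chosen by the −log10 q of peaks called with inhibitor in the NTC and WT lines, and their spans, extended by 1 kb on each side, were searched in every peak list. Under inhibitor, both wild-type lines had a GFP-DNMT1 peak at or near the annotated start of CTTNBP2, HECW2, PARD3B, JAKMIP3 and ZSCAN1. Both also had 1 at the lower-coordinate end of GLT1D1, centred 353 bp inside it in NTC. Annotated starts were also common among all inhibitor-only peaks with a −log10 q of at least 4 (41.7% in NTC and 36.0% in WT). At CTTNBP2, PARD3B and GLT1D1 no DMSO library of any line had a peak there. In DLGAP2 (970.8 kb) and AUTS2 (1195.0 kb) the strongest inhibitor-only sites lay deep inside the gene. In DACT3 and IQANK1 they lay in the gene body, and a separate site at 1 annotated end of each gene was called under DMSO and not in NTC or WT under inhibitor.

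Peaks were called from chromatin pulled down with an anti-GFP antibody in MV4-11, an established leukaemia line from acute myeloid disease, after 7 days in DMSO or in 100 nM GSK-3685032, an inhibitor of DNMT1 (DNMT1i). All GFP-DNMT1 cells carried a guide against endogenous DNMT1 and overexpressed the tagged protein from an ectopic construct, and the peak lists give no check that the endogenous protein was lost. WT cells carried wild-type GFP-DNMT1, RFTSdel cells a GFP-DNMT1 lacking the RFTS domain, and NTC and UHRF1KO cells the wild-type protein plus a non-targeting guide or a guide against UHRF1. NTC, WT and UHRF1KO had 1 library per treatment and RFTSdel had 2. Untreated parental MV4-11 cells without GFP gave the antibody background in 1 library and had 0 peaks in the 10 spans. Each list was called on 1 library and held between 4254 and 32534 peaks after removal of peaks shared with the parental list. The sample labels put WT, RFTSdel and parental cells in batch 1 and NTC and UHRF1KO in batch 2, so both libraries of a pair come from 1 batch. The lists hold no read counts, so depth is unknown, and with 1 library per treatment a difference in NTC, WT or UHRF1KO has no replicate check.

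DNMT1 copies CpG methylation onto the new strand after DNA replication. UHRF1 recognises hemimethylated CpG and brings DNMT1 to it, and the RFTS domain of DNMT1 takes part in this recruitment and in autoinhibition of the enzyme. Promoters rich in CpG are usually unmethylated, while a subset, often of genes used in other tissues, is methylated in cancer cells. Several of the genes act in neurons: CTTNBP2 is a cortactin-binding protein of dendritic spines, DLGAP2 a scaffold of the postsynaptic density, AUTS2 a nuclear protein linked to neurodevelopmental disorders that associates with a variant Polycomb complex, and HECW2 a HECT-type ubiquitin ligase mutated in a neurodevelopmental disorder. PARD3B is a paralogue of the cell polarity scaffold PARD3, JAKMIP3 belongs to a family of Janus kinase and microtubule interacting proteins, and DACT3 is an antagonist of Wnt signalling through Dishevelled. GLT1D1 has a glycosyltransferase domain, IQANK1 an IQ motif and ankyrin repeats, and ZSCAN1 zinc fingers and a SCAN domain. Expression was not analysed here.

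An inhibitor-only peak is a DNMT1i peak that no DMSO peak of the same line overlapped by 1 bp. The lead peak of a gene is its highest-ranked inhibitor-only peak in NTC or WT by the authors' −log10 q. These values chose the genes, and they are given as a description. By −log10 q among the 3698 inhibitor-only peaks of NTC, the lead peaks of CTTNBP2, HECW2, PARD3B, AUTS2 and GLT1D1 ranked 1, 4, 5, 10 and 13. Among the 3008 of WT, those of JAKMIP3, DLGAP2 and DACT3 ranked 1, 3 and 4. At the edge of the first 5 ranks, PARD3B (rank 5, 8.20) was followed by VGLL2 (7.64) in NTC, and KCNB2 (7.54) by LACTBL1 (7.10) in WT. IQANK1 and ZSCAN1 went against this description. Their strongest DNMT1i peaks, with a −log10 q of 7.07 in NTC and 7.32 in WT, each met a DMSO peak of their own line, and their best inhibitor-only peaks ranked 210 and 972 of 3008 in WT. AUTS2, IQANK1 and GLT1D1 held the peaks ranked 3, 4 and 5 among the 3927 NTC DNMT1i peaks with no UHRF1KO DNMT1i counterpart, and JAKMIP3, DLGAP2 and ZSCAN1 those ranked 2, 4 and 5 among the 2471 WT DNMT1i peaks matched in neither RFTSdel DNMT1i replicate. The missing counterparts of these peaks are therefore also part of how the genes were picked.

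The sequences below show the 300 bases from 250 before to 50 after the annotated start for the genes whose start lay under a peak, with every CpG, the dinucleotide that DNMT1 methylates, in capitals. They are RefSeq sequences of GRCh38.p14, written 5′ to 3′ along the gene. The start windows of CTTNBP2, HECW2, PARD3B, JAKMIP3 and ZSCAN1 are those under the wild-type DNMT1i peaks. DACT3 and AUTS2 are shown because their starts were occupied under DMSO.

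CTTNBP2 (chr7:117873392-117873691, - strand): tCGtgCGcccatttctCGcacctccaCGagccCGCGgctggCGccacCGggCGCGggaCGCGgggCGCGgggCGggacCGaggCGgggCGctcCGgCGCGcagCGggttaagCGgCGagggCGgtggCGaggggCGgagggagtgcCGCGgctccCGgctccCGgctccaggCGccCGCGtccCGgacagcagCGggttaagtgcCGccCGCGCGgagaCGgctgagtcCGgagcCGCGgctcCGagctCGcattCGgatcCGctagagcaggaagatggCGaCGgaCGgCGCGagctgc

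HECW2, inner start (chr2:196592934-196593233, - strand): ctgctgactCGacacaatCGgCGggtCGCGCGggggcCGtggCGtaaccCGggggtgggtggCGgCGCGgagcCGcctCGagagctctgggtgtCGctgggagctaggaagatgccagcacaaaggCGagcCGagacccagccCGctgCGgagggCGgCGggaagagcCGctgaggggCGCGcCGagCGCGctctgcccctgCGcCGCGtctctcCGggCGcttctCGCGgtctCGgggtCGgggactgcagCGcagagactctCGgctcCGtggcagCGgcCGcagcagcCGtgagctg

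PARD3B (chr2:204545225-204545524, + strand): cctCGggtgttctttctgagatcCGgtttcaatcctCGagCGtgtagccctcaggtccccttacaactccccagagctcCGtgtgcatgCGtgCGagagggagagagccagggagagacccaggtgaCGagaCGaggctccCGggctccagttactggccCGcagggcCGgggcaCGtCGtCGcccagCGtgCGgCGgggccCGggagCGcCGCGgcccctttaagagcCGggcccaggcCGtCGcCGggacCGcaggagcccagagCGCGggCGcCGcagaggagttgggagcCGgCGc

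JAKMIP3, second start (chr10:132036427-132036726, + strand): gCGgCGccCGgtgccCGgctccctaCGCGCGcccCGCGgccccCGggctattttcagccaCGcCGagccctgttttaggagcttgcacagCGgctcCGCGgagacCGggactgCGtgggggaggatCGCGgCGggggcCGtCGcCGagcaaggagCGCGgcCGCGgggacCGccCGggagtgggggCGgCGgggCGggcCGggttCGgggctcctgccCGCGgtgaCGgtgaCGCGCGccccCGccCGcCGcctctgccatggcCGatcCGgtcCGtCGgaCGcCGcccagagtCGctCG

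ZSCAN1 (chr19:58033775-58034074, + strand): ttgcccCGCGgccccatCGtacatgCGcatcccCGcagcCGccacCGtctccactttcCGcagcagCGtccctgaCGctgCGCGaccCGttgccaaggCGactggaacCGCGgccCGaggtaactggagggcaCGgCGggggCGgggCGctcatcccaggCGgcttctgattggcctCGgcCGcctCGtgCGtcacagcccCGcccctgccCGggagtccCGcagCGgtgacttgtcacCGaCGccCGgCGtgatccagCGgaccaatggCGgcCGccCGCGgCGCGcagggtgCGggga

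DACT3, outer start (chr19:46661133-46661432, - strand): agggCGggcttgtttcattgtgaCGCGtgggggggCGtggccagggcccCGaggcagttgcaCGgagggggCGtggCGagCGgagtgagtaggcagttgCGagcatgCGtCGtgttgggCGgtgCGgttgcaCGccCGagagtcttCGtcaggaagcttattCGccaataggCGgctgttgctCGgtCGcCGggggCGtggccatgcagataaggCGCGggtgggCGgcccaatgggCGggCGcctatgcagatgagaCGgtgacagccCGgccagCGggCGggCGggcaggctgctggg

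AUTS2 (chr7:69598225-69598524, + strand): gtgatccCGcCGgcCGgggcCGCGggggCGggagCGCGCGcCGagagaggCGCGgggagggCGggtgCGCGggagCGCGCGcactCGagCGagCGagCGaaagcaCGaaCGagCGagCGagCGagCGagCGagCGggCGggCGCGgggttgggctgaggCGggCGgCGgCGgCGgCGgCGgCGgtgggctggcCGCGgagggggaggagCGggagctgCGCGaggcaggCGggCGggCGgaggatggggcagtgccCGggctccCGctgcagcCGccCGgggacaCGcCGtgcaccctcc

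The motif searched was CG, which reads the same on both strands. CTTNBP2 held 53 CpG in 300 bases, a count reached by 0.721% of the 22199 start windows of protein-coding genes, and JAKMIP3 held 51, reached by 1.26%. HECW2 and ZSCAN1 each held 42, reached by 7.50% of windows, and PARD3B held 33, reached by 22.2%. Windows occupied under DMSO ranged from 55 CpG in AUTS2 (0.432% of windows) and 33 at the outer start of DACT3 to 24 at the first start of JAKMIP3 (WT DMSO, fold 3.91) and 8 at the inner start of DACT3 (UHRF1KO DMSO, fold 3.65). DMSO peaks also touched the JAKMIP3 window with 51 (WT and UHRF1KO) and the windows with 42 in HECW2 (WT) and ZSCAN1 (NTC and WT). In turn, NTC DNMT1i peaks touched the first start of JAKMIP3, with 24, and the outer start of HECW2, with 31. The inner start of CTTNBP2 held 13 and no peak touched it. The median over all windows was 21. It was 31 for the 1027 windows under an NTC inhibitor-only peak and 29 for the 8223 under an NTC DMSO-only peak, so CpG-rich starts were common under both kinds of peak.

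CTTNBP2 (chromosome 7, 117710651 to 117873441, minus strand) gave the strongest inhibitor-only peak of NTC. The NTC DNMT1i peak spanned 117872942 to 117873667, with a fold enrichment of 8.01 and a −log10 q of 9.23, both as given by the authors' caller. Its centre lay 136 bp inside the gene from the outer start. The same start was called in WT DNMT1i (fold 5.27, −log10 q 3.62), UHRF1KO DNMT1i (4.57 and 2.28) and RFTSdel DNMT1i replicate 2 (4.19 and 2.36). It was called in no DMSO library and not in RFTSdel DNMT1i replicate 1. The gene held 1 other peak, in UHRF1KO DMSO, 79854 bp from its nearest start.

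HECW2 (chromosome 2, 196194072 to 196593554, minus strand) was occupied over 2 annotated starts. The NTC DNMT1i peak (196592573 to 196593707, fold 7.25, −log10 q 8.46) covered both, and no NTC DMSO peak lay in the gene. The site was called in all 5 DNMT1i libraries, with folds of 5.42 in WT, 4.72 in UHRF1KO, and 4.37 and 3.70 in the RFTSdel replicates. WT DMSO also had a peak at the inner start (fold 4.31, −log10 q 2.49), so the site was inhibitor-only in NTC, UHRF1KO and both RFTSdel pairs and not in WT.

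PARD3B (chromosome 2, 204545475 to 205620162, plus strand) spans 1074.7 kb and had a DNMT1i peak nowhere but at its start. The NTC peak (204545421 to 204546031, fold 7.60, −log10 q 8.20), the WT peak (6.10 and 5.02) and the UHRF1KO peak (4.99 and 3.01) overlapped each other. Neither RFTSdel replicate had a peak anywhere in the gene under either treatment. The only DMSO peak of the gene was in NTC, 479814 bp from the start (fold 4.40).

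GLT1D1 (chromosome 12, 128853478 to 128984968) was marked at its lower-coordinate end. The NTC DNMT1i peak (128853546 to 128854117) had a fold of 6.66 and a −log10 q of 6.99. Overlapping peaks were called in WT DNMT1i (3.96 and 1.94) and RFTSdel DNMT1i replicate 2 (4.32 and 2.62). No DMSO library, UHRF1KO DNMT1i or RFTSdel DNMT1i replicate 1 had a peak there.

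At JAKMIP3 (chromosome 10, 132036364 to 132184858, plus strand) the WT DNMT1i peak (132036516 to 132036996, fold 7.74, −log10 q 8.37) was the strongest inhibitor-only peak of WT. It was inhibitor-only by a narrow margin, since a weaker WT DMSO peak (132036168 to 132036502, fold 3.91, −log10 q 1.93) lay 13 bp away. The NTC DNMT1i peak there had a fold of 5.32 and no DMSO counterpart in NTC. UHRF1KO had a peak at this start under both treatments, with folds of 3.34 in DMSO and 3.92 under DNMT1i. No RFTSdel library had a peak there.

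ZSCAN1 (chromosome 19, 58034025 to 58056502, plus strand) had peaks over its start under both treatments in the wild-type lines. In WT the fold was 3.91 in DMSO and 6.40 under DNMT1i, with −log10 q of 2.15 and 7.32. In NTC it was 3.52 and 5.07, with −log10 q of 1.46 and 4.53. Values from different lists are not on 1 scale and these pairs were not tested. In UHRF1KO the start was called under DNMT1i alone (fold 6.17, −log10 q 6.12), the highest −log10 q of UHRF1KO DNMT1i in any of the 10 genes. No RFTSdel library had a peak in ZSCAN1.

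**Figure D1:**
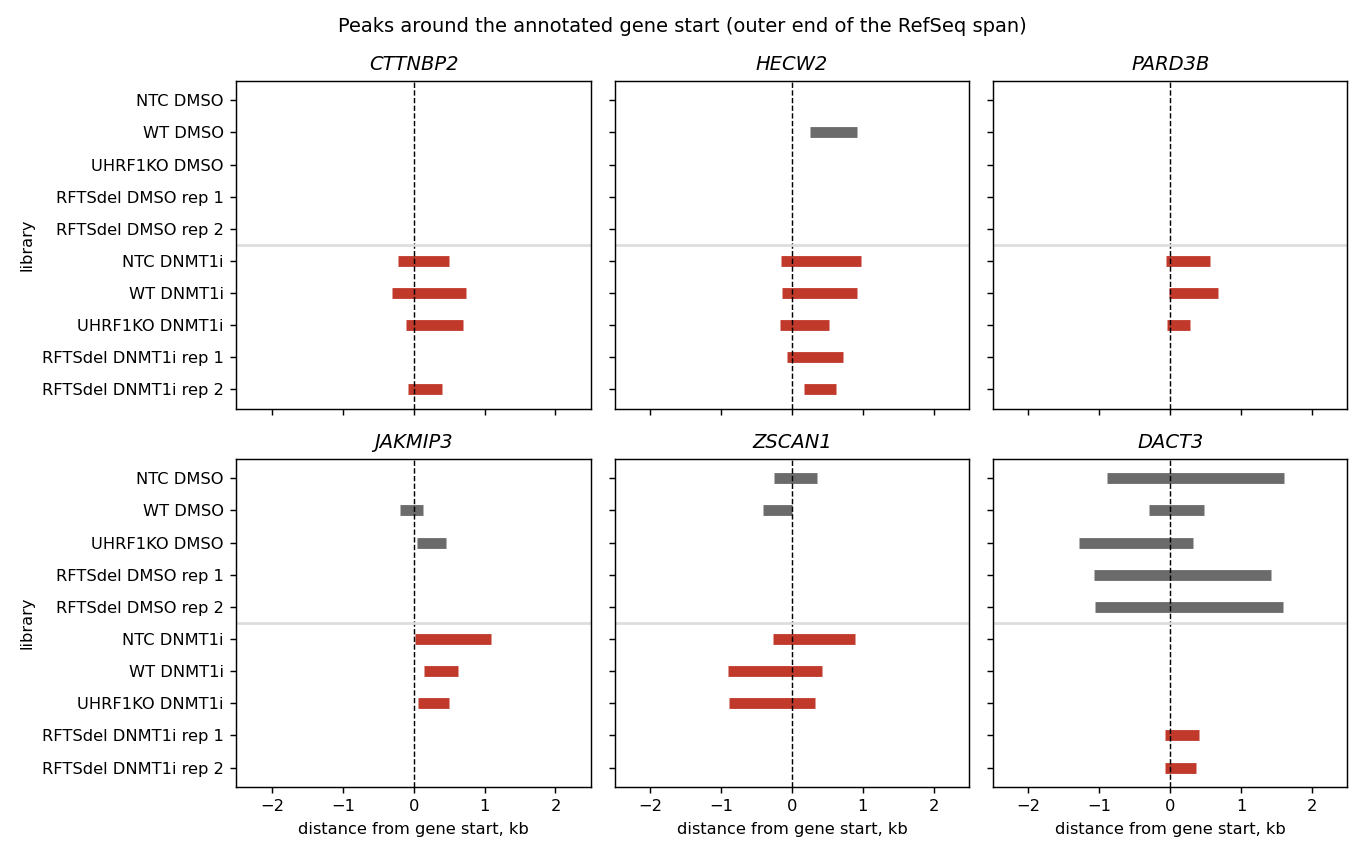
Peaks (bars) around the outer annotated start of 6 genes, by library (rows; DMSO grey, DNMT1i red), with distance in kb along the gene on the x axis. CTTNBP2 and PARD3B have no DMSO peak at the start, JAKMIP3 and ZSCAN1 have both kinds, and at DACT3 all 5 DMSO libraries and, under DNMT1i, the 2 RFTSdel replicates have a peak.

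DLGAP2 (chromosome 8, 737628 to 1708476) held more peaks than the other 9 genes. When the peaks of all 10 lists were merged, 49 of the 103 sites in the 10 genes lay in it, and 26 of the 49 were called in 1 library. The number of its peaks was 27 in NTC DNMT1i against 11 in NTC DMSO, 19 against 17 in WT, 11 against 7 in UHRF1KO, 4 against 1 in RFTSdel replicate 1 and 4 against 2 in replicate 2. The NTC and WT values are part of how DLGAP2 was chosen. The WT lead peak (1035828 to 1036474, fold 6.09, −log10 q 7.97) had overlapping peaks in NTC DNMT1i (fold 5.49) and UHRF1KO DNMT1i (fold 4.40), and none in RFTSdel. It sat between neighbouring sites at 1033543 to 1034621 and 1039213 to 1041882, both also called in NTC, WT and UHRF1KO under DNMT1i and in no DMSO library. Another site, 1548541 to 1549591, was called in all 5 DNMT1i libraries and no DMSO library, with folds of 5.64 in WT, 5.56 in NTC, 4.90 in UHRF1KO, and 3.63 and 3.46 in RFTSdel. That pattern held for 0.154% of all 48783 merged regions.

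AUTS2 (chromosome 7, 69598475 to 70793506, plus strand) carried 11 merged sites. Its lead peak in NTC DNMT1i (70595929 to 70596482, fold 7.05, −log10 q 7.23) was centred 997730 bp from the start. It was matched in WT DNMT1i (fold 4.05) and RFTSdel DNMT1i replicate 1 (fold 3.74). A second site near the far end (70789947 to 70790882) was called under DNMT1i in WT (fold 5.34), NTC (4.02) and UHRF1KO (4.10), and in no DMSO library. The start itself had a peak in all 5 DMSO libraries, with folds from 3.68 in WT to 4.66 in RFTSdel replicate 1, and under DNMT1i in NTC and both RFTSdel replicates. A merged site at 70693535 to 70695711 held a peak in all 10 libraries, which held for 0.211% of merged regions. Its strongest peak was in RFTSdel DMSO replicate 2, with a fold of 8.76 and a −log10 q of 11.5.

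**Figure D2:**
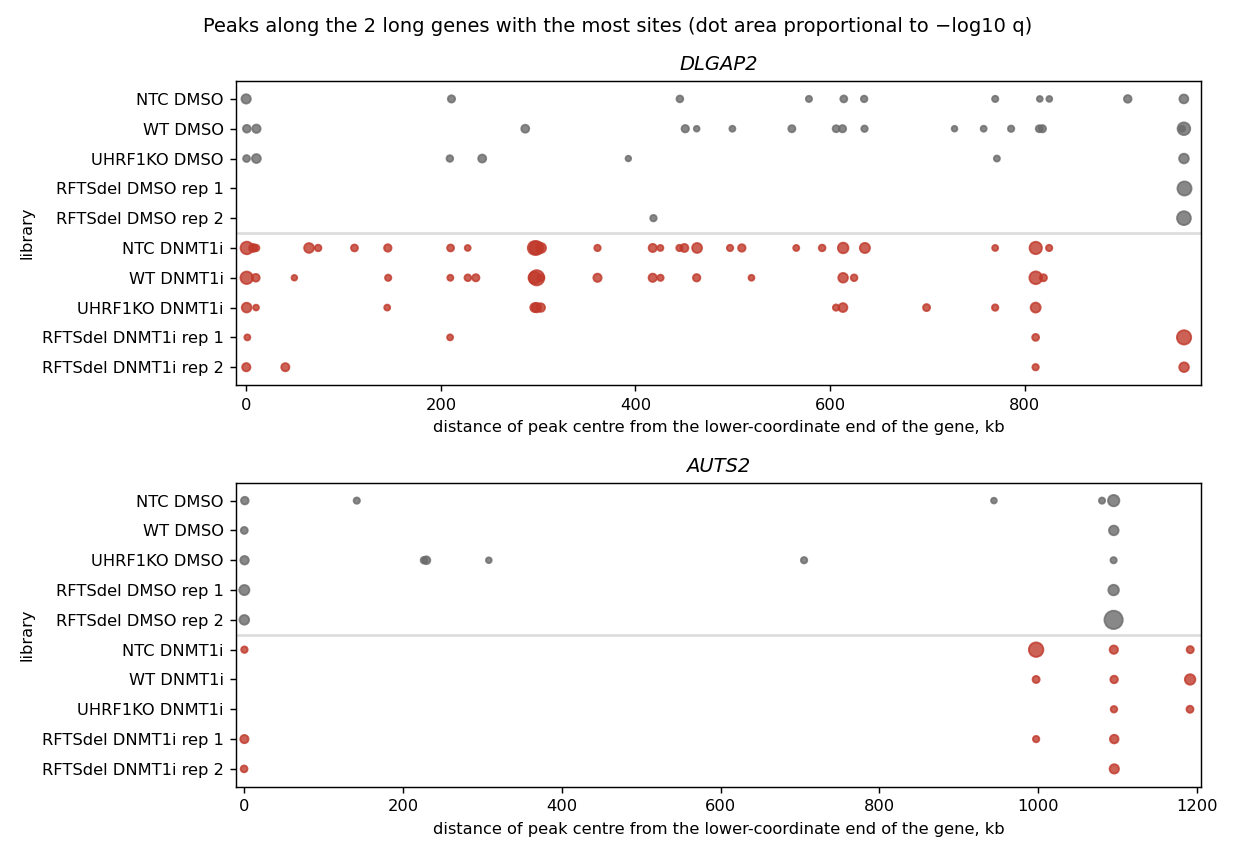
Centre of each peak in DLGAP2 and AUTS2, in kb from the lower-coordinate end of the gene (x axis), by library (rows; DMSO grey, DNMT1i red), with dot area proportional to −log10 q. In DLGAP2 the NTC and WT DNMT1i lists have 27 and 19 peaks, and the site near its upper end is called in the 5 DMSO libraries and, under DNMT1i, in both RFTSdel replicates.

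DACT3 (chromosome 19, 46647551 to 46661182, minus strand) showed 2 sites with opposite calls. Near the far end of the gene, the WT DNMT1i peak (46648562 to 46649532, fold 6.66, −log10 q 7.80) was matched in all other DNMT1i libraries, with folds of 5.53 in NTC, 3.98 in UHRF1KO, and 3.70 and 4.35 in RFTSdel. NTC DMSO had a weak peak there (fold 3.29, −log10 q 1.28), and UHRF1KO DMSO had 1 beside it (46649820 to 46650671, fold 3.17). At the start, a site of 2893 bp was called in all 5 DMSO libraries, with folds from 3.85 in WT to 4.05 in RFTSdel replicate 1. With inhibitor, the 2 RFTSdel replicates kept a peak there (folds 4.09 and 5.08), and NTC, WT and UHRF1KO had none.

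IQANK1 (chromosome 8, 143734139 to 143790645) had a similar pair of patterns. The site across its lower-coordinate end, which also reaches the end of the neighbouring gene FAM83H, was called in all 5 DMSO libraries and, under DNMT1i, in both RFTSdel replicates alone. Inside the gene, the WT lead peak (143770820 to 143772418, fold 4.92, −log10 q 4.03) was matched under DNMT1i in NTC (5.71), UHRF1KO (3.82) and RFTSdel replicate 2 (3.74), and under DMSO in NTC and UHRF1KO. The strongest NTC DNMT1i peak (143739752 to 143740744, fold 6.21) was matched in WT and both RFTSdel replicates under DNMT1i, and under DMSO in NTC and WT. The pattern of all 5 DMSO libraries plus both RFTSdel DNMT1i replicates and no other DNMT1i library was found at 3 of the 103 sites, in DACT3, IQANK1 and at the upper end of DLGAP2. It held for 5.56% of all merged regions, and the pattern was picked after these values were seen. Of the 103 sites, 46 were called under DMSO in some library and under DNMT1i in none, against 64.7% of all merged regions, and 31 under DNMT1i alone, against 10.8%. DLGAP2 held 22 of these 31, leaving 9 of the 54 sites of the other genes, and NTC and WT DNMT1i peaks chose the genes, so nothing is read from this share. The 5 DMSO libraries all had a peak at 5 sites, against 16.1%. A site called under DNMT1i in both NTC and WT and in no DMSO library occurred 13 times (2.3% of merged regions), 8 of them in DLGAP2. UHRF1KO DNMT1i shared 8 of the 13, against 33.2% of all regions with that pattern. Of these 8, 5 lay in DLGAP2. The 33.2% covers peaks of every strength. Of NTC inhibitor-only peaks with a −log10 q of at least 4, UHRF1KO DNMT1i overlapped 59.1%, so no excess is read from the 8. At least 1 RFTSdel DNMT1i replicate shared 4 of the 13, against 38.5% of all regions with that pattern, again of every strength. Of NTC inhibitor-only peaks with a −log10 q of at least 4, it was 53.4%. The 13 sites were not matched for strength, so nothing is read from the 4.

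The lead peak touched a start window in 4 of the 7 genes that have such a window (CTTNBP2, HECW2, PARD3B and JAKMIP3). DLGAP2, GLT1D1 and IQANK1 have none and could not be counted. Among inhibitor-only peaks with a −log10 q of at least 4, in or outside genes, this held for 41.7% in NTC and 36.0% in WT. The denominators differ, so these shares are not compared. Within 1 kb of an end of the gene span, known for all 10 genes, lay 5 lead peaks. Of the strong peaks 55.1% in NTC and 55.6% in WT lay that near an end of any protein-coding gene. The lead peaks were counted only at the ends of their own gene, so these shares are not compared either. Whether the other lines share the lead sites was counted over the 10 genes. In UHRF1KO DNMT1i, 7 of 10 lead peaks were overlapped, with folds from 3.82 to 4.99. AUTS2, GLT1D1 and ZSCAN1 were not, and the first 2 of these were picked in part for that. In UHRF1KO DMSO, 2 of 10 were overlapped, JAKMIP3 and IQANK1. Among all inhibitor-only peaks, 24.8% of those of WT and 22.0% of those of NTC (95% Wilson interval 20.7 to 23.3) were overlapped in UHRF1KO DNMT1i, and 9.68% of the latter in UHRF1KO DMSO. Among the 247 NTC peaks with a −log10 q of at least 4, the share in UHRF1KO DNMT1i was 59.1% (52.9 to 65.1), and among the 214 such peaks of WT it was 50.5% (43.8 to 57.1). The cutoff of 4 does not match the lead peaks, whose −log10 q ran from 2.53 (ZSCAN1 in WT) to 9.23 (CTTNBP2 in NTC). No excess is therefore read from the 7 of 10. The intervals cover counting error only.

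In RFTSdel DNMT1i, 3 of 10 lead peaks were overlapped in replicate 1 (HECW2, AUTS2 and DACT3), where 31.6% of NTC inhibitor-only peaks with a −log10 q of at least 4 were. In replicate 2 it was 5 of 10 (CTTNBP2, HECW2, DACT3, GLT1D1 and IQANK1), against 45.3%. HECW2 and DACT3 were called in both replicates, against 23.5%. PARD3B, JAKMIP3, DLGAP2 and ZSCAN1 were called in neither, which for JAKMIP3 and DLGAP2 was among the grounds for picking them. No RFTSdel DMSO library had a peak at any of the 10 lead sites, against 0.81% of the strong NTC peaks. At least 1 replicate shared 6 of 10 sites. The background was 29.6% of all NTC and 32.8% of all WT inhibitor-only peaks, and 53.4% and 53.3% of those with a −log10 q of at least 4. As in UHRF1KO, the cutoff does not match the lead peaks, so no excess is read from the 6. This count depends on replicate 2, since replicate 1 alone shared 3. The 2 wild-type lines shared 9 of 10 lead sites under DNMT1i, all but that of ZSCAN1. The background for this was 78.5% of strong NTC peaks in WT and 88.3% of strong WT peaks in NTC, and the rule used both lists.

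**Figure D3:**
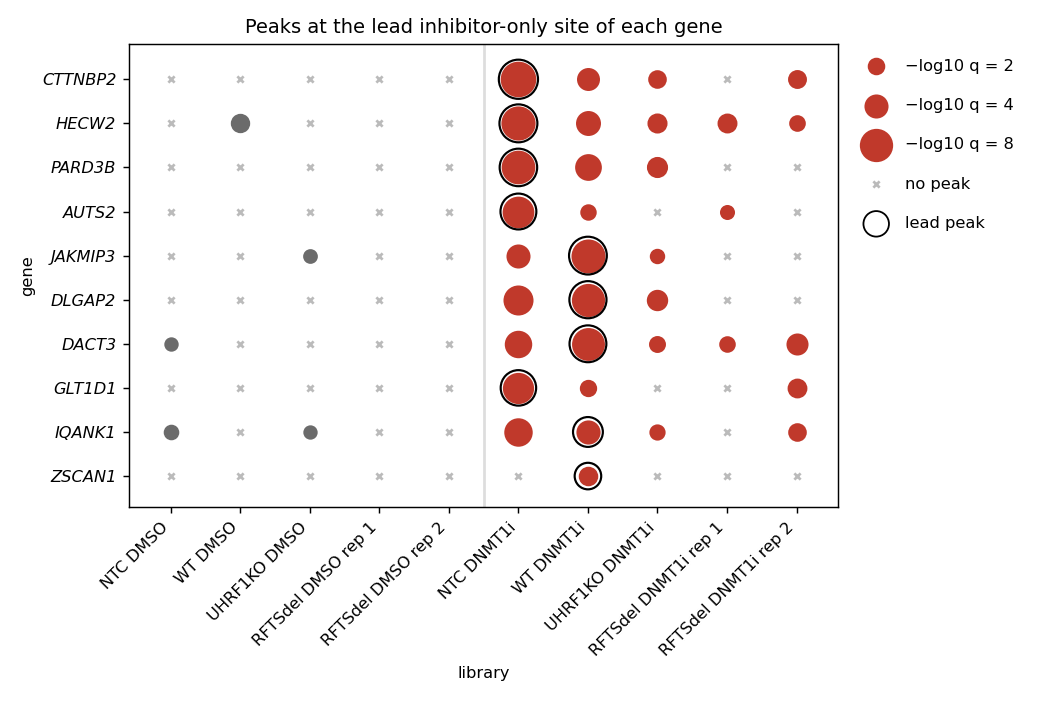
Peaks at the lead inhibitor-only site of each gene (rows) in the 10 libraries (columns; DMSO grey, DNMT1i red), with dot area proportional to −log10 q, crosses where no peak overlapped and a black ring around the lead peak itself. DNMT1i libraries hold 9 (NTC), 10 (WT), 7 (UHRF1KO), 3 and 5 (RFTSdel) sites, and DMSO libraries 2, 1, 2, 0 and 0.

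Over the whole spans, NTC and WT had a peak in 8 of 10 genes under DMSO and in 10 of 10 under DNMT1i, lists that the choice of the genes used. The background over all protein-coding genes was 60.7% and 20.6% in NTC and 52.9% and 14.8% in WT. UHRF1KO had a peak in 8 of 10 genes under DMSO, where the background was 65.6%, and in 9 of 10 under DNMT1i, where it was 20.5%. GLT1D1 was the gene without a UHRF1KO DNMT1i peak. Since 7 of the 10 genes exceed 100 kb, genes of at least that length are a closer background, with 77.1% and 29.4% in UHRF1KO. An inhibitor-only peak was called in 8 of 10 genes in UHRF1KO, against 6.42% of all genes and 14.3% of long ones. It was called in 5 of 10 in RFTSdel replicate 1 (7.7% and 13.9%) and in 7 of 10 in replicate 2 (12.1% and 21.0%). In NTC, 7 of 10 had such a peak (12.2%) and in WT 9 of 10 (10.3%), by the choice of the genes. The UHRF1KO and RFTSdel counts under DNMT1i are not independent of that choice. Of NTC inhibitor-only peaks with a −log10 q of at least 4, UHRF1KO DNMT1i overlapped 59.1% and at least 1 RFTSdel DNMT1i replicate 53.4%. The shares of all genes and of long ones are therefore no fair background for these counts.

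In RFTSdel, the line with replicates, 4 genes had a peak in each DMSO library: AUTS2, DLGAP2, DACT3 and IQANK1. The background was 51.0% and 54.1% of all genes, and 58.0% and 60.7% of long ones. Under DNMT1i, 5 genes had 1 in replicate 1 and 8 in replicate 2, against 34.2% and 47.3% of all genes and 47.3% and 59.7% of long ones. The mean was 6.5 ± 2.12 under DNMT1i and 4 ± 0 under DMSO (SD, n = 2 each), a difference of 2.5 genes. The groups did not overlap (exact two-sided permutation test, 2 against 2, p = 0.333, the smallest this design allows). The test is not independent of how the genes were chosen, since DNMT1i peaks in NTC and WT picked them. Of NTC inhibitor-only peaks with a −log10 q of at least 4, at least 1 RFTSdel replicate shared 53.4% under DNMT1i and 0.81% under DMSO. For JAKMIP3, DLGAP2 and ZSCAN1, missing RFTSdel DNMT1i peaks were also among the grounds. Nothing is therefore read from the separation. The difference was 1 in replicate 1 and 4 in replicate 2, so replicate 2 carries most of it. When peaks with a −log10 q under 4 were left out, the difference turned to −1. Nothing in the labels says that the replicates were separate cultures, so this spread may be technical.

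**Figure D4:**
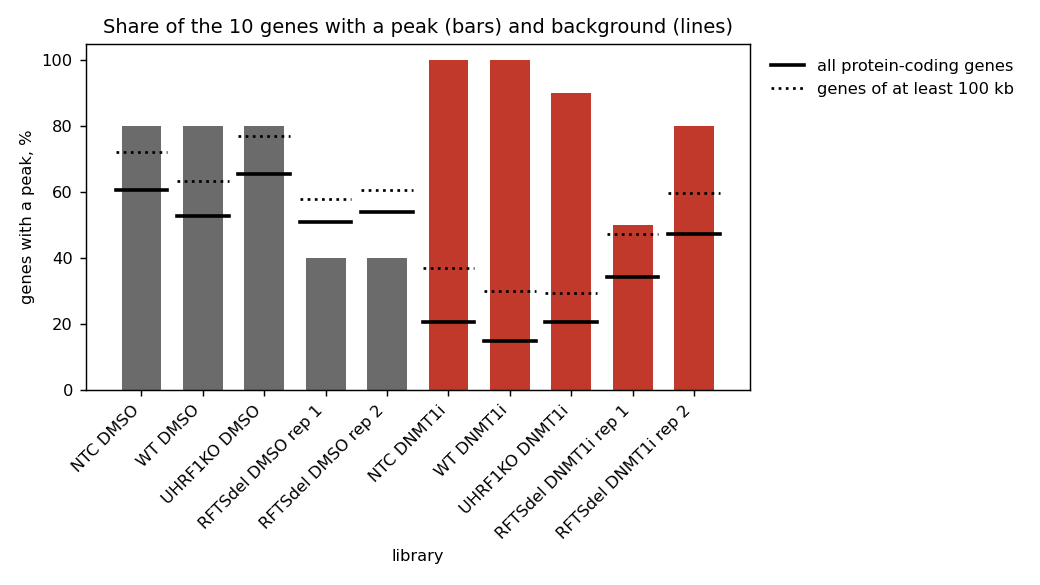
Percentage of the 10 genes with at least 1 peak in their extended span (bars, y axis from 0) in each library (x axis; DMSO grey, DNMT1i red), with the share of all protein-coding genes (solid lines) and of those of at least 100 kb (dotted lines). The RFTSdel DMSO bars, at 4 of 10 genes, lie below both lines, and the NTC, WT and UHRF1KO DNMT1i bars lie well above them. The genes were chosen by DNMT1i peaks in NTC and WT.

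Counting peaks in place of genes, the 10 spans held 32 peaks in UHRF1KO DMSO and 21 under DNMT1i, a smaller number in a list that shrank from 32534 to 4642. Per 1000 peaks of the list this was 0.984 and 4.52. The RFTSdel replicates had 0.408 and 0.428 under DMSO and 1.72 and 1.35 under DNMT1i. NTC had 1.36 and 7.36, and WT had 1.86 and 7.76. DLGAP2 supplied much of this. Without it the peaks numbered 25 and 10 in UHRF1KO, 21 and 16 in NTC, and 14 and 14 in WT.

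Lists of related genes gave a wider view. A list of 23 genes held paralogues of the 10 genes and also PARD6A, PARD6B and PARD6G, which are not paralogues. Of the 23, 10 had an inhibitor-only peak in NTC, 10 in WT, 6 in UHRF1KO, and 8 and 8 in RFTSdel. Of all protein-coding genes, 12.2%, 10.3%, 6.42%, 7.7% and 12.1% had 1. DMSO-only peaks were called in 16, 13, 14, 5 and 5 of the 23, against 55.3%, 49.6%, 58.3%, 27.3% and 21.5% of all genes. Among genes of at least 100 kb, the inhibitor-only shares were higher, at 26.3%, 22.6%, 14.3%, 13.9% and 21.0%. The 23 genes were not matched for length. PARD6G is counted among those with an inhibitor-only peak in NTC and both RFTSdel replicates. An inhibitor-only peak in both wild-type lines was called in 7 of the 23, against 5.86% of all genes and 14.8% of those long genes. These were DLGAP1, FBRSL1, JAKMIP1, NEDD4L, PARD3, ZSCAN18 and ZSCAN5A. DLGAP1, the paralogue of DLGAP2, had the strongest of them in NTC (fold 6.20, −log10 q 5.65), and UHRF1KO and both RFTSdel replicates also had an inhibitor-only peak within that site. NEDD4L, a ubiquitin ligase related to HECW2, had overlapping peaks in NTC (fold 5.23), WT (5.27), UHRF1KO (4.05) and RFTSdel replicate 2 (3.81). Of 27 synaptic scaffold, adhesion and other long neural genes, 18 had an inhibitor-only peak in NTC, 13 in WT, 4 in UHRF1KO, and 6 and 11 in RFTSdel, and 13 had 1 in both wild-type lines, among them CACNA1C, CSMD1, DLG2, GRIN1, GRIN2A, HOMER2, NLGN1, PTPRD, RBFOX1, SHANK2 and SHANK3. Of all genes of at least 100 kb, the shares with 1 were 26.3%, 22.6%, 14.3%, 13.9% and 21.0% for NTC, WT, UHRF1KO and the RFTSdel replicates, and 14.8% for both wild-type lines. The UHRF1KO count is thus near the share of long genes. DMSO-only peaks were called in 19, 21, 21, 10 and 11 of the 27 genes in the same order of lines, against 66.5%, 58.2%, 72.5%, 30.4% and 26.5% of long genes. Of 20 known partners of AUTS2, DACT and PARD3 proteins, 5 had 1 in NTC, 4 in WT, 2 in UHRF1KO, and 1 and 1 in RFTSdel, against 12.2%, 10.3%, 6.42%, 7.7% and 12.1% of all genes. DMSO-only peaks were called in 17, 14, 15, 6 and 4 of the 20, to be set against the shares given for the list of 23 genes. LRP6 and PRKCZ had an inhibitor-only peak in both wild-type lines. LRP6 is a Wnt co-receptor and PRKCZ an atypical protein kinase C of the polarity complex.

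The pattern of calls was also compared across genes. At least 5 of the 10 genes had a peak in 8 of the 10 libraries, all but the 2 RFTSdel DMSO ones. No single gene among the 10 had exactly this pattern. The pattern was matched in all 10 libraries by 76 other genes, where there are 20037 protein-coding genes. NTC and WT DNMT1i, where all 10 genes had a peak, chose the genes, so the choice partly sets the pattern. The matches were ranked in the same lists, so nothing is read from the likeness. The 5 with the highest −log10 q there were CFAP97D2 (26.7), the calcium channel gene CACNA1H (12.2), NLRP4 (6.93), EPPK1 (6.88) and NRG1 (6.28). NRG1 encodes a growth factor of the neuregulin family.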

How the data were processed

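Broad peak lists of 11 anti-GFP libraries were used, and the 2 input samples were not analysed here. Sample labels gave the groups and replicate numbers. The design text of the series swaps the numbers of the 2 batches, and the labels were followed. Per the submitters' processing notes, the tools were MACS2, BWA, cutadapt, deepTools and Picard, and the build was GRCh38. No role, version or setting of these tools is stated in the sources used here. The authors deposited a fold for each peak, a ratio over the local background. The −log10 p and −log10 q columns and the score column are as deposited by the authors, and p and score entered no result. These values are each peak's own and were used to describe, rank or filter peaks within a list.

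Peaks on chromosomes 1 to 22, X and Y that overlapped no parental peak were kept. Gene spans came from RefSeq (GRCh38.p14), in which all 10 symbols matched, and starts with strand from its table of start windows, which held 7 of the 10 genes. Exon and intron positions were not used here. Shared means an overlap of at least 1 bp, and coordinates count from 1. Genes and lists were chosen with earlier results of these data known. All 10 genes are named. Related genes are named where both NTC and WT had an inhibitor-only peak, except that some are not reported here, and genes of like pattern are the 5 with the highest −log10 q. Checks of the overlap and permutation steps gave the known answer in 6 of 6 cases. Those of interval queries and of shared peaks used NTC DMSO peaks. The rest used an invented interval or small invented numbers. Software was Python 3.11.15 with numpy 2.4.6, pandas 2.3.3, matplotlib 3.10.9 and scipy 1.17.1. Alternatives changed the parental filter, the peak thresholds, the list lengths, the window, the overlap and the replicates, and 3 of them were chosen after the data were seen.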

Additional observations from a re-analysis of the deposited data

Results flagged for a closer look

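The number of peaks in the 10 spans moved in opposite directions between lines, which was not tested. From DMSO to DNMT1i it changed by −11 in UHRF1KO, by 11 in NTC, by 2 in WT, and by 8 and 9 in the RFTSdel replicates. The change in NTC less that in UHRF1KO was 22 peaks, that in WT less UHRF1KO was 13, and that in UHRF1KO less the RFTSdel mean was −19.5. Without DLGAP2 the changes were −15 in UHRF1KO, −5 in NTC, 0 in WT, and 5 and 7 in RFTSdel, so NTC then moved with UHRF1KO. These are raw counts from lists that shrank unequally, from 32534 to 4642 peaks in UHRF1KO and from 14026 to 11141 in RFTSdel replicate 2. Per 1000 peaks of the list the number rose in every line, in UHRF1KO from 0.984 to 4.52. The labels put WT and RFTSdel in batch 1 and UHRF1KO in batch 2, so contrasts of UHRF1KO with WT and RFTSdel also cross batches.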

How the results depend on the processing

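Of 69 values under other settings, 60 kept their direction or stayed within 1.5 times the reported count. Among peaks with a −log10 q of at least 4, the RFTSdel difference in genes with a peak reversed to −1 (exact permutation p = 0.333). There the genes with an inhibitor-only peak fell to 1 in UHRF1KO and 0.5 in RFTSdel (mean of 2 pairs, against 6), and the lead peaks shared, with the lead chosen again among the remaining peaks, fell to 1 with UHRF1KO DNMT1i and 0 with RFTSdel DNMT1i. At the lead sites as reported, peaks had a −log10 q of 1.49 to 3.09 in UHRF1KO DNMT1i and of at most 3.31 in RFTSdel DNMT1i. With a fold of at least 4, the RFTSdel mean was 3.5. With lists of equal length it was 2.5, and 3 lead peaks were shared with RFTSdel DNMT1i in place of 6; the cause was not tested. Leaving out 1 RFTSdel replicate gave differences of 1 to 4 genes, 5 to 7 genes with an inhibitor-only peak and 3 to 5 shared lead peaks. With the replicate number as a block the difference of 2.5 genes had an exact sign-flip permutation p of 0.5, the smallest possible with 2 pairs. Over 20037 genes the replicate differences in peak presence under DMSO and DNMT1i had a correlation of 0.01. Peak calls cannot show whether samples of the same replicate number shared a culture or a day. Depth is unknown, so a site with no peak may hold signal below the calling threshold.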

Other observations

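Several of the genes also held sites called under DMSO and not with inhibitor. In GLT1D1, 8862 bp from its marked end (NTC), a site was called in NTC, WT and UHRF1KO DMSO (folds 3.33, 4.4 and 3.74) and in no DNMT1i library. UHRF1KO DMSO had 4 further peaks inside HECW2, with folds from 3.57 to 4.19, where no other library had a peak. In all, 62 of the 103 sites were called in a single library.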
